A study of Mus musculus with 2 samples.

Results

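The 10 genes described here carry the bone morphogenetic protein (BMP) signal or read it out: the ligand Bmp4, the receptors Bmpr2, Acvrl1 and Eng, the inhibitory Smads Smad6 and Smad7, the Id genes Id1, Id2 and Id3, and Tmem100. They were taken by symbol from the gene list shared by both libraries, and all 10 of the 27998 genes on that list were found once. Lungs of C57BL/6 mice aged 2 weeks were compared between room air (21% oxygen) and hyperoxia (80% oxygen), the latter breathed from day 0 to day 14 after birth. In each group 8 mice were pooled into 1 library of whole-lung cells, freed with dispase, collagenase and DNase and rid of red cells by lysis. The labels name no mutant allele or transgene in either group. With 1 library a group there was no replicate, so no difference below was tested between conditions, and every interval is a 95% exact interval that covers counting error only.

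BMP ligands bind pairs of type I and type II receptors, which phosphorylate Smad1, Smad5 and Smad9 so that they enter the nucleus with Smad4 and switch on genes such as the Ids. In vessels the type I receptor Acvrl1 (ALK1), the type II receptor Bmpr2 and the co-receptor Eng (endoglin) answer to BMP9 and BMP10 from the blood, and loss of function of these receptors causes hereditary haemorrhagic telangiectasia and pulmonary arterial hypertension in people. Smad6 and Smad7 feed back on the receptors, and Id proteins hold basic helix-loop-helix factors away from DNA.

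The room air library held 4234 barcodes with a median of 7306.5 UMIs (unique molecular identifiers, each standing for 1 captured mRNA molecule), and the hyperoxia library 13223 barcodes with a median of 6643 UMIs. After filters on genes, mitochondrial share and doublets, 3680 and 10472 cells were left, of which 1039 and 2547 were endothelial-like. All 8 endothelial markers were highest in those cells, Cdh5 for example at 1897 and 1794 CPM (counts of the gene per 1000000 counts of the class) in room air and hyperoxia against at most 19.4 and 20.2 in any other lineage. The endothelial cells split into gCap-like (general capillary) cells with 608 and 844 cells, aCap-like (aerocyte) cells with 160 and 1135, arterial-like cells with 94 and 154, venous-like cells with 34 and 113 and smaller classes. The libraries stood apart within classes: 86.3% of the room air gCap-like cells lay in 1 cluster and 81.2% of the hyperoxia gCap-like cells in another, and each of these clusters was at least 90% from 1 library. The aCap-like class likewise drew most of its room air cells from a cluster led by haemoglobin genes (106 and 23 cells) and most of its hyperoxia cells from another (18 and 645 cells). The libraries shared 17 barcodes. Values are therefore also given below within single clusters that held at least 20 cells of each library.

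The stretches of genome just before the RefSeq start sites of these genes are shown because several are direct Smad targets and because the genes split by cell type below. RefSeq promoters (build GRCm38) were found for 6 of the 10 genes, namely Bmp4, Bmpr2, Eng, Id2, Id3 and Smad6, and 2 short words that Smads are known to bind were searched on both strands in the 250 bases before each start. These words were GGCGCC, held by 9.59% of all 32851 RefSeq promoters, and GTCTG, which reads as CAGAC when it lies on the other strand, held by 42.2%. Capitals mark a match, and each line reads 5′ to 3′ on the gene's own strand. Eng (chr2:32646345-32646594, plus strand) held GTCTG at 2 places, 214 and 127 bases before the start, and Smad6 (chr9:64022060-64022309, minus strand) held neither word. The shorter lines give each match in Bmpr2 (chr1:59764164-59764189, plus strand), Id2 (chr12:25096308-25096333, minus strand) and Id3 (chr4:136143645-136143669 and chr4:136143744-136143768, plus strand) with 10 bases on each side. Bmp4 held neither word. The windows of Bmpr2, Id2 and Id3 lay inside the annotated genes and overlapped annotated exons, so only their matches are printed. For these genes the RefSeq start used was therefore not the first annotated start.
Eng: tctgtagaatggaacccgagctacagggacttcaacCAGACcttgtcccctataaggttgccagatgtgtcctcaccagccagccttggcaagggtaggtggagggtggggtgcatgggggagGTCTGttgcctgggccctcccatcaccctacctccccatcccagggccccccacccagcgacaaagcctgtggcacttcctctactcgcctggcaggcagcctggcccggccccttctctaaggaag
Smad6: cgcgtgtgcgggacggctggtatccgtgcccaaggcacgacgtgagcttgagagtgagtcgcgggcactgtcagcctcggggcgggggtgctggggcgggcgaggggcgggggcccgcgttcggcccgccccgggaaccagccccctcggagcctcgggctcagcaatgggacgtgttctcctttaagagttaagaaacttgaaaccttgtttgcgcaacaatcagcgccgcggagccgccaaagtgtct
Bmpr2, 105 bases before the start: ccggcggccgGGCGCCgctgcctgcc
Id2, 231 bases before the start: aggccccctgGGCGCCcagcgcacac
Id3, 167 bases before the start: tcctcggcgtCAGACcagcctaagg
Id3, 68 bases before the start: acccttggcgGTCTGttttgaataa
A match is a word in a window and no evidence of binding in these cells. Eng and Smad6 were both mostly endothelial in the data, 1 with a match and 1 without, while Id2 and Id3, each with a match, were spread over many cell types.

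Which cells carried the pathway was read first. Endothelial-like cells held 92.3% of the Tmem100 UMIs of all cells in room air and 87.6% in hyperoxia. The shares were 87.3% and 88.7% for Smad6, 84.9% and 86.8% for Acvrl1, 78.0% and 73.9% for Bmpr2 and 69.6% and 77.6% for Eng. The Id genes were less endothelial, with 58.3% and 65.1% of Id1, 40.7% and 35.6% of Id3 and 17% and 13.8% of Id2. Smad7 stood at 52.5% and 45.6%. The ligand Bmp4 was mostly stromal: 74.9% and 73.3% of its UMIs came from stromal-like cells and 16% and 16.2% from endothelial-like cells. These shares depend on how many cells of each kind were captured as well as on RNA per cell, and the levels that follow are CPM, the UMIs of the gene per 1000000 UMIs of the cell class. The UMIs come from transcript 3′ ends, and levels are compared between cell types for 1 gene at a time, never between genes.

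**Figure D1:**
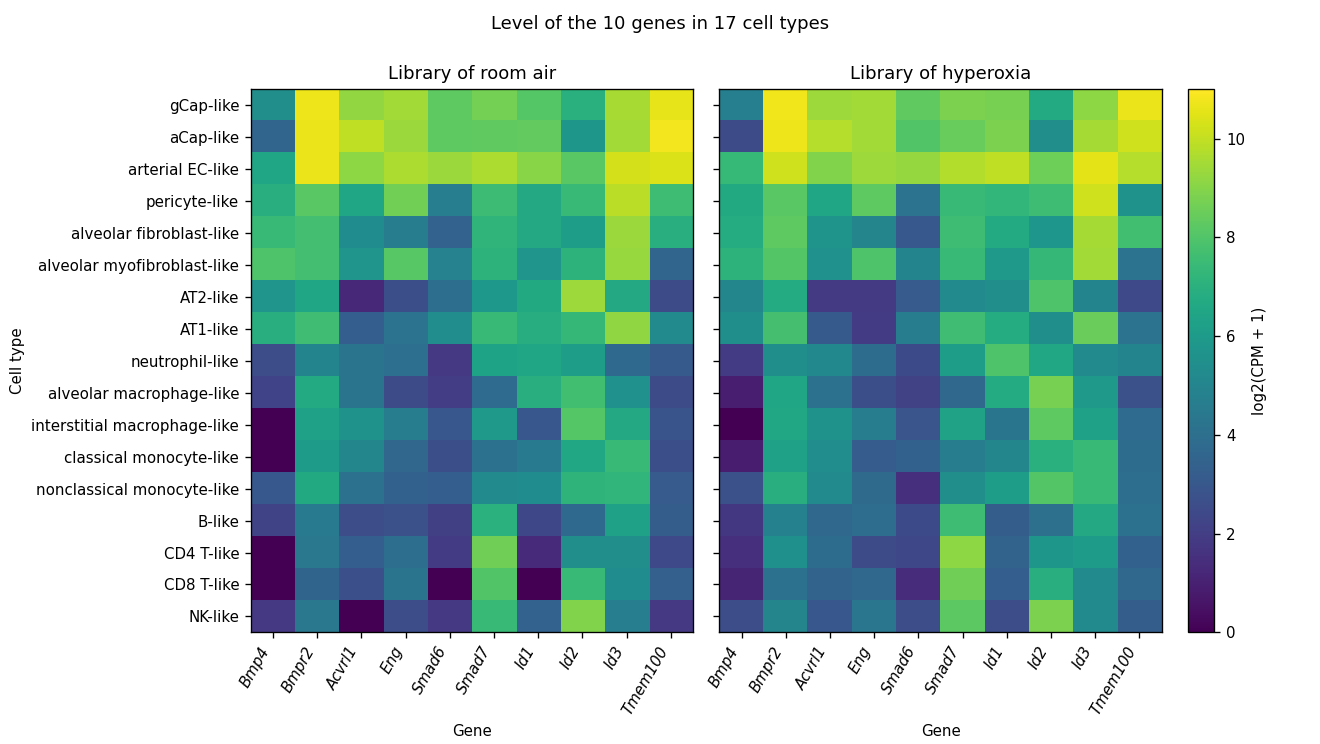
Heat map of the level of each of the 10 genes (colour, log2 of CPM + 1) in 17 cell classes with at least 50 cells in each library, 1 panel for room air and 1 for hyperoxia. Tmem100, Smad6, Acvrl1 and Bmpr2 peaked in the endothelial classes in both libraries, for example Bmpr2 at 1699 and 1747 CPM in gCap-like cells, while Bmp4 in room air was, among these 17 classes, highest in alveolar myofibroblast-like cells at 253 CPM.

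Among the receptors, Bmpr2, the type II receptor, was close to level across the capillaries and arteries of the room air library, at 1699 CPM in gCap-like, 1643 in aCap-like and 1636 in arterial-like cells, and neighbours in that order did not differ beyond counting error. Cycling endothelial-like and venous-like cells, with 45 and 34 room air cells, were lower at 1008 and 964.6 CPM, and outside the endothelium pericyte-like cells came first at 293. Acvrl1, the ALK1 receptor, was highest in aCap-like cells in both libraries (994 and 885 CPM) and lower in gCap-like (594 and 661) and arterial-like cells (561 and 477), the latter pair not differing beyond counting error in room air. Eng was the receptor that stromal cells shared. In room air arterial-like cells held it at 812 CPM, gCap-like cells at 712, aCap-like cells at 648 and venous-like cells at 685. Outside the endothelium pericyte-like cells came first at 405 and alveolar myofibroblast-like cells next at 286, and adventitial fibroblast-like cells (40 room air cells) were far lower at 54.9. Alveolar fibroblast-like cells held Eng at only 23.5 CPM.

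Over all endothelial-like cells the receptors differed little between the conditions. Bmpr2 in all endothelial-like cells stood at 1544 CPM in room air and 1570 in hyperoxia, which gives 0.02 (interval -0.01 to 0.05) as the log2 ratio, here always with hyperoxia over room air, and Eng at 699.6 and 708.9, a log2 ratio of 0.02 (-0.03 to 0.06). Acvrl1 was at 621 and 706 CPM, a log2 ratio of 0.19 (0.14 to 0.23). This higher Acvrl1 went with the makeup of the compartment: aCap-like cells, in which Acvrl1 was highest, held 16.2% of the endothelial UMIs in room air and 42.9% in hyperoxia. With the hyperoxia levels of each class weighted by the room air makeup, the log2 ratio of Acvrl1 was 0.04. Within classes it pointed both ways, 0.15 (0.09 to 0.22) in gCap-like and -0.17 (-0.25 to -0.08) in aCap-like cells. In the gCap-like cluster that both libraries shared Bmpr2 was at 1804 and 2320 CPM (0.36, 0.18 to 0.55). Acvrl1 there was at 382 and 512 (0.42, 0.03 to 0.83). In the aCap-like cluster led by haemoglobin genes the log2 ratio was -0.16 (-0.32 to -0.01) for Bmpr2 and -0.17 (-0.38 to 0.04) for Acvrl1. A second shared aCap-like cluster gave 0.01 (-0.41 to 0.46) and -0.36 (-0.82 to 0.12). In arterial-like cells all 3 receptors were lower in hyperoxia, Bmpr2 most, at 1636 and 1195 CPM (log2 ratio -0.45, -0.56 to -0.35). This held for Bmpr2 within the main arterial cluster (1709 and 1352 CPM, -0.34), but at a coarser clustering resolution of 0.5 the arterial ratio of Bmpr2 was 0.05, that of Acvrl1 0.27 and that of Eng 0.01, so the arterial receptor differences depended on where the class was drawn.

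Against all genes, few of the members stood out in endothelial cells. Of 8417 genes with a mean of at least 10 CPM in endothelial-like cells, 6.63% were higher in hyperoxia by at least 1.5-fold and 9.24% lower; of the 10 members 0 were higher and 1, Bmp4, was lower. In gCap-like cells the background was 6.71% higher and 9.42% lower, against 1 member higher (Id1) and 1 lower (Bmp4) of 10. In aCap-like cells it was 8.25% and 8.82%, against 0 and 0 of the 9 members at that level, Bmp4 falling under it. In arterial-like cells, fewer and noisier, 13.8% and 14.9% of genes passed, against 2 members higher (Bmp4 and Id1) and 1 lower (Tmem100) of 10. At the clustering resolution of 0.5 these arterial differences kept their direction but lay under 1.5-fold, with log2 ratios of 0.40, 0.46 and -0.31. The median log2 ratio of the members was -0.09 in endothelial-like cells, beside 0.00 over all genes. In these endothelial classes the members passed the fold in numbers near the background.

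**Figure D2:**
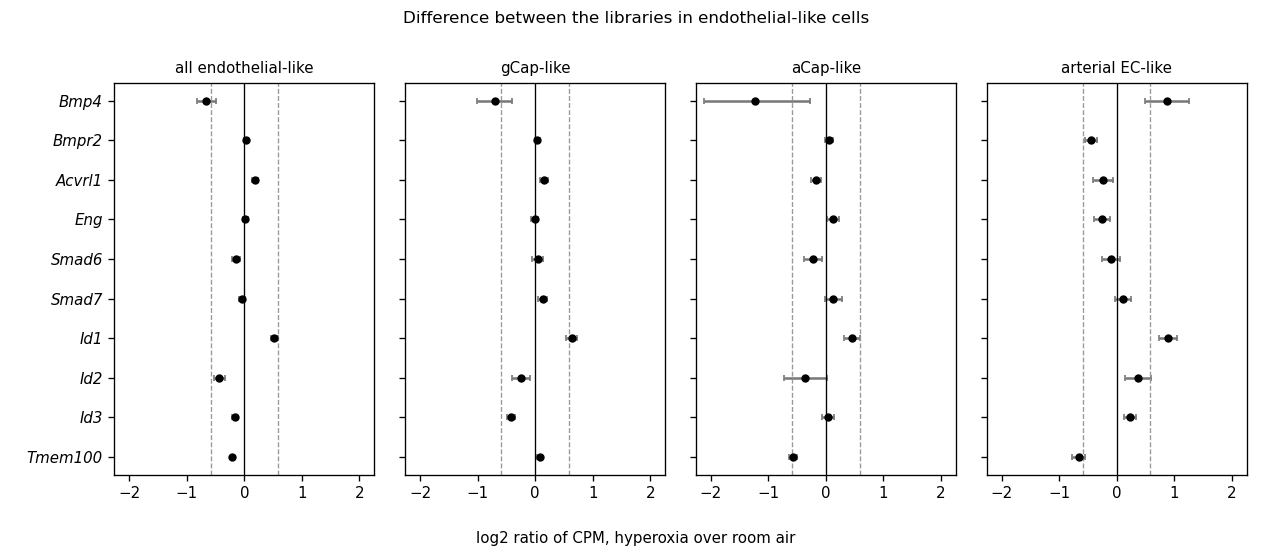
Log2 ratio of hyperoxia over room air for each gene in all endothelial-like, gCap-like, aCap-like and arterial-like cells, with bars for 95% counting intervals and dashed lines at 1.5-fold. Id1 lay above 0 in the 3 classes (0.64, 0.45 and 0.89), Bmpr2 sat near 0 in the capillary classes, and Tmem100 lay below 0 in aCap-like and arterial-like cells (-0.57 and -0.66). At a clustering resolution of 0.5, not drawn, the arterial values of Id1 and Tmem100 were 0.46 and -0.31.

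Id1, a target that BMP9 and BMP10 induce strongly in endothelium, was the one member that was higher in hyperoxia beyond counting error in all 3 endothelial classes compared. It stood at 315 CPM in endothelial-like cells of room air and 453 in hyperoxia (log2 ratio 0.52, 0.46 to 0.59). In gCap-like cells it was at 275 and 427 (0.64, 0.54 to 0.73), in aCap-like cells at 328 and 448 (0.45, 0.31 to 0.59) and in arterial-like cells at 525 and 974 (0.89, 0.74 to 1.05). The arterial value was 0.46 at the clustering resolution of 0.5. With the hyperoxia levels weighted by the room air makeup of the compartment the log2 ratio was 0.55. Thinned to 2000 UMIs a cell, 36.0% of gCap-like cells had an Id1 UMI in room air and 48.4% in hyperoxia (67.4% and 80.7% before thinning), against 0.539% and 1.69% in B-like cells, which should lack the gene.

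Within single clusters the Id1 difference was not seen everywhere. In the main arterial cluster it was at 503 and 939 CPM (0.90, 0.73 to 1.07). In venous-like cells it went the other way, at 389 and 282 (-0.47, -0.74 to -0.18). In the shared aCap-like cluster led by haemoglobin genes it was at 332.5 and 331.7 (-0.00, -0.36 to 0.34), and in a second shared aCap-like cluster, of low UMI counts, at 243 and 379 (0.64, -0.22 to 1.64). The gCap-like cluster that both libraries shared held 183 and 229 (0.32, -0.26 to 0.94). In all 3 shared capillary clusters the interval reached 0 and was wide, those of the gCap-like and second aCap-like clusters also holding the value of their class. The main gCap-like clusters, 275 CPM in that of room air and 444 in that of hyperoxia, came almost wholly from 1 library each, so no comparison was made within them. With 1 library a group, library and condition cannot be told apart in any cluster, shared ones included. Cycling endothelial-like cells held Id1 at 299 and 300 CPM (0.00, -0.26 to 0.27), but the 8 epithelial markers in them summed to 13046 CPM in room air and 429 in hyperoxia and the 8 stromal markers to 1673 and 135, and the part of such RNA in the Id1 values was not tested. A list of 12 genes that respond to tissue dissociation, among them immediate early genes, moved with Id1. It was higher in hyperoxia for 12 of 12 genes in endothelial-like cells, with a summed level of 5594 and 6876 CPM (log2 ratio 0.30), for 12 of 12 in gCap-like cells (0.21), 10 of 12 in aCap-like cells (0.21) and 11 of 12 in arterial-like cells (0.48). Its part in the Id1 difference was not tested.

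**Figure D3:**
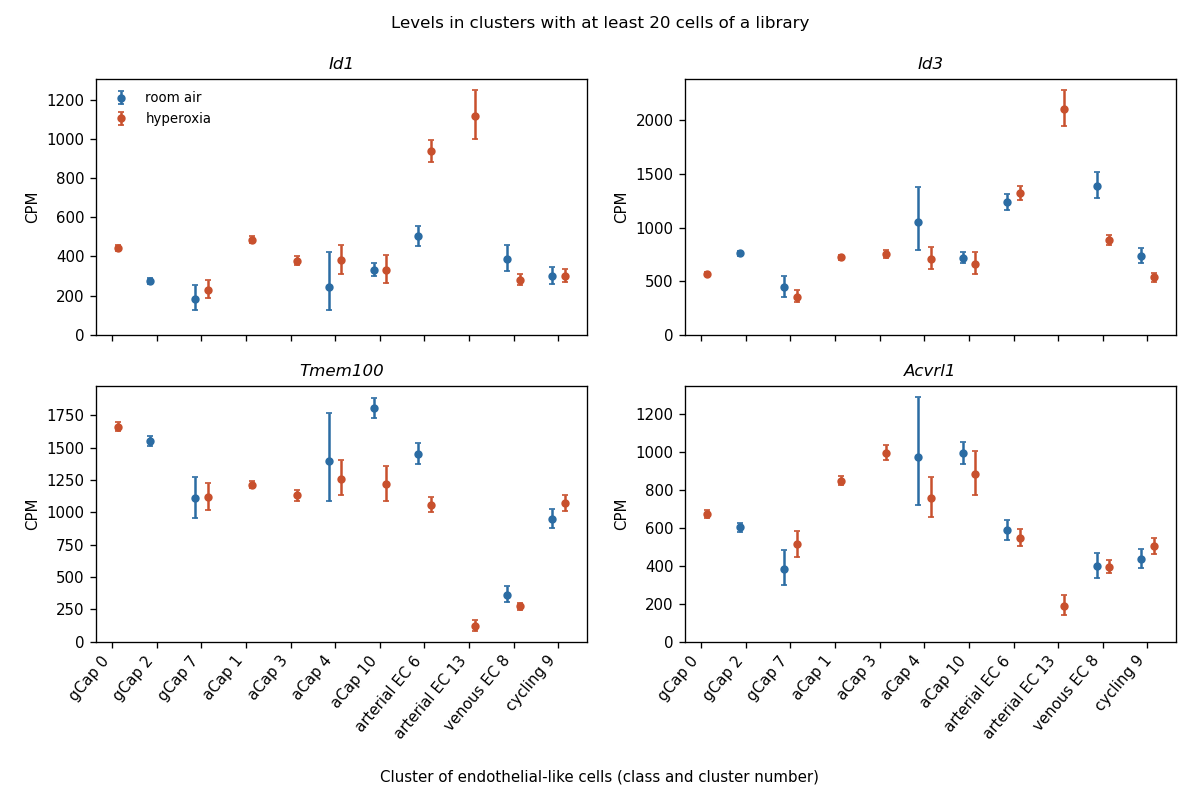
Level of Id1, Id3, Tmem100 and Acvrl1 (CPM) in each endothelial cluster with at least 20 cells of a library, room air in blue and hyperoxia in red, with bars for 95% counting intervals and cluster numbers beside the class names. Id1 was higher in hyperoxia in the main arterial cluster (503 and 939 CPM) and alike in the shared aCap-like cluster (332.5 and 331.7), while Tmem100 was lower in hyperoxia in both of them.

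Id3 followed a different course from Id1. Arterial-like cells held it at 1265 and 1478 CPM and venous-like cells, with only 34 room air cells, at 1392 and 881.5. Outside the endothelium smooth muscle-like cells (29 room air cells) stood at 948 and 1099 and pericyte-like cells at 923 and 1183. In gCap-like cells Id3 was lower in hyperoxia, at 746 and 557 CPM (log2 ratio -0.42, -0.49 to -0.36), where Id1 was higher. The share of gCap-like cells with an Id3 UMI after thinning was 67.9% and 59.7%. In the gCap-like cluster shared by both libraries Id3 was at 443 and 356 CPM (-0.31, -0.71 to 0.10). In aCap-like cells Id3 stood at 712 and 729 (0.03, -0.07 to 0.13). Even so the pair went together cell by cell: in thinned gCap-like cells Id3 was found in 74.6% of the room air cells with Id1 and 64.1% of those without, and in 67.0% and 52.8% in hyperoxia. Cells of 1 library are not replicates, and this is a description of those libraries.

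Id2 was not chiefly endothelial. It was at 144 CPM in endothelial-like cells of room air and 107 in hyperoxia (log2 ratio -0.43, -0.53 to -0.33), and at the room air makeup the log2 ratio was -0.16, since aCap-like cells, the class that was larger in hyperoxia, held little Id2 (55.0 and 42.6 CPM). In arterial-like cells it was at 290 and 374 (0.37, 0.15 to 0.59), a direction that turned at the coarser clustering (-0.24). Among the 17 classes with at least 50 cells in each library Id2 in room air was highest in AT2-like cells, at 670 CPM, then in NK-like cells at 489, and in hyperoxia NK-like cells came first, within counting error of alveolar macrophage-like cells. Outside those classes ILC2-like, dendritic-like and smooth muscle-like cells were high in both libraries, at 1084 and 772, 784 and 781, and 706.6 and 695 CPM, with only 12, 24 and 29 room air cells. Id2 is needed for innate lymphoid and NK cells, and NK-like cells stood at 489 and 461 CPM in room air and hyperoxia.

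**Figure D4:**
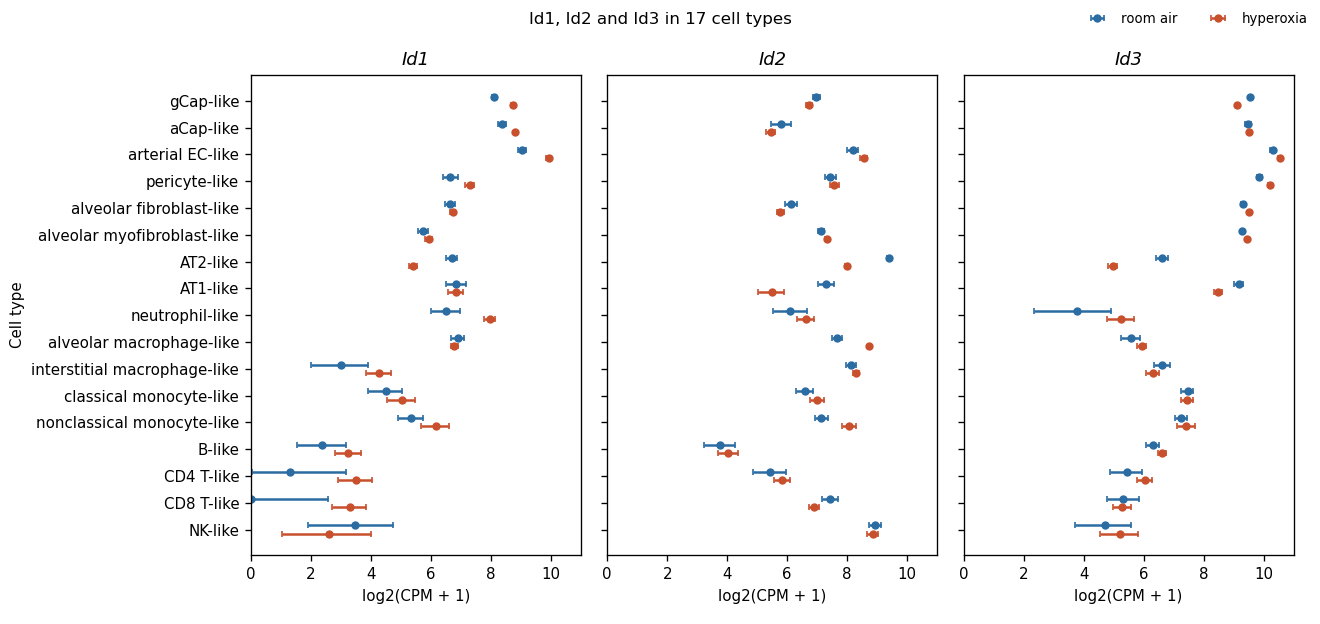
Level of Id1, Id2 and Id3 (log2 of CPM + 1) in 17 cell classes, room air in blue and hyperoxia in red, with bars for 95% counting intervals. Id1 was higher in hyperoxia in the 3 endothelial classes shown and in neutrophil-like cells (90.7 and 248 CPM), and all 3 were lower in AT2-like cells, where Id2 was at 670 and 252 CPM.

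Among the endothelial classes the inhibitory Smads were highest in arterial-like cells. Smad6 in room air was at 658 CPM in arterial-like cells, 310 in gCap-like and 305 in aCap-like cells, the last 2 not differing beyond counting error, and at no more than 40.4 in any class outside the endothelium. In hyperoxia arterial-like cells were at 614 (log2 ratio -0.10, -0.25 to 0.05), gCap-like at 320 and aCap-like at 261 (-0.23, -0.38 to -0.07). Smad7 was at 800 and 860 CPM in arterial-like cells (0.10, -0.03 to 0.24), 418 and 459 in gCap-like cells and 313 and 342 in aCap-like cells. Venous-like cells, with only 34 room air cells, held Smad7 at 655 and 364 CPM (-0.85, -1.07 to -0.62). Smad7, which also restrains the TGF-β receptor, was also high in lymphocytes, with 390 and 556 CPM in CD4 T-like cells (0.51, 0.32 to 0.71), 261 and 396 in CD8 T-like cells (0.60, 0.38 to 0.83), 176 and 295 in NK-like cells (0.74, 0.33 to 1.16) and 127 and 191 in B-like cells (0.59, 0.39 to 0.79). It was thus higher in hyperoxia in all 4 of these lymphocyte classes. Over all genes, 11.4% were higher by at least 1.5-fold in CD4 T-like, 12% in CD8 T-like, 21% in NK-like and 7.58% in B-like cells. The dissociation list was also higher in each of them, for 10 of 12 genes in CD4 T-like (log2 ratio 0.36), 8 of 12 in CD8 T-like (0.26), 10 of 12 in NK-like (0.33) and 12 of 12 in B-like cells (0.54). The B-like cells also held more haemoglobin RNA in hyperoxia (52.7 and 1432 CPM). Epithelial marker genes, summed, stood at 453 and 729 CPM in CD4 T-like and 278 and 787 in CD8 T-like cells. In NK-like cells they were at 345 and 855 and in B-like cells at 417 and 1150. Myeloid marker genes were lower in hyperoxia in CD4 T-like (597 and 316) and NK-like cells (4037 and 3632). The part of any of these in the Smad7 differences was not tested.

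Tmem100, a small membrane protein induced through ALK1 and needed for arterial differentiation, was endothelial and capillary in both libraries. In room air it was highest in aCap-like cells at 1772 CPM, then gCap-like cells at 1529 and arterial-like cells at 1382, and each step was beyond counting error. In hyperoxia the order of the capillaries was turned, with gCap-like cells at 1621, aCap-like cells at 1192 and arterial-like cells at 874. The log2 ratio was 0.08 (0.04 to 0.13) in gCap-like, -0.57 (-0.64 to -0.51) in aCap-like and -0.66 (-0.78 to -0.55) in arterial-like cells. The arterial value was -0.31 at the clustering resolution of 0.5. The aCap-like difference held inside the shared cluster led by haemoglobin genes, at 1806 and 1216 CPM (-0.57, -0.75 to -0.40), which rests on 23 hyperoxia cells. In the second shared aCap-like cluster it was at 1397 and 1260 (-0.15, -0.53 to 0.25), and in the shared gCap-like cluster at 1107 and 1118 (0.01, -0.23 to 0.26). The main arterial cluster showed 1452 and 1057 (-0.46, -0.57 to -0.34), and the 25 hyperoxia cells of a smaller arterial-like cluster, led by Sfrp1, Cytl1, Mgp and Gkn3 and with 4 room air cells, held only 122 CPM. Thinned to 2000 UMIs, 92.2% and 82.5% of aCap-like cells and 91.1% and 90.1% of gCap-like cells had a Tmem100 UMI, against 1.9% and 3.4% of B-like cells. Over all endothelial-like cells it was at 1416 and 1228 CPM (-0.21, -0.24 to -0.17), and at 0.29 on the log2 scale in the 49 and 25 cells without any UMI of a list of 12 genes of other lineages. Over all endothelial-like cells that list summed to 1736 and 711 CPM and was higher in hyperoxia for 0 of 12 genes. Much of this lay in cycling endothelial-like cells, at 15014 and 582 CPM. In gCap-like cells the list was instead at 492 and 619 CPM, in aCap-like cells at 598 and 676 and in arterial-like cells at 452 and 696. Its part in the Tmem100 values was not tested. Venous-like and lymphatic-like cells were low in Tmem100, at 362 and 273 CPM and at 21.0 and 6.33.

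Pericyte-like cells showed a wider gap in Tmem100 than any endothelial class compared. It was at 193 CPM in room air and 49.9 in hyperoxia (log2 ratio -1.95, -2.30 to -1.62), and the share of thinned cells with a UMI was 35.0% and 6.2%. In the pericyte-like cluster with 101 and 107 cells it was at 236 and 80.5 (-1.55, -1.93 to -1.19), and in another with 22 and 96 cells it was near 0 in both libraries (7.66 and 16.2). Endothelial marker genes, summed, stood at 229 and 141 CPM in pericyte-like cells, and their part in the Tmem100 difference was not tested. Id1 went the other way in these cells, at 99.3 and 156 CPM (0.65, 0.36 to 0.96), and Id3 was at 923 and 1183 (0.36, 0.26 to 0.46). Within clusters the Id3 difference was smaller or absent. It was at 769 and 876 (0.19, 0.05 to 0.33) in the cluster with 101 and 107 cells. In the cluster with 22 and 96 cells it was at 1556 and 1519 (-0.03, -0.19 to 0.13). The dissociation list was higher in pericyte-like cells for 11 of 12 genes (log2 ratio 0.50), and its part in the Id differences was not tested. Eng was at 405 and 304 (-0.42), but at 484 and 461 (-0.07) in the larger cluster, so that difference lay between clusters. Over all genes in pericyte-like cells 9.27% were higher and 11.5% lower by 1.5-fold, against 1 member higher (Id1) and 1 lower (Tmem100) of 10.

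Bmp4, the only ligand among the members, was lower in hyperoxia in most of the classes that made it. Alveolar myofibroblast-like cells held 253 and 139 CPM (log2 ratio -0.86, -0.97 to -0.76), and within a cluster that both libraries shared 328 and 136 (-1.27, -1.52 to -1.02). Alveolar fibroblast-like cells were at 169 and 112 (-0.60, -0.74 to -0.45), AT1-like cells at 123 and 43.7 (-1.49, -2.04 to -0.96) and gCap-like cells at 41.8 and 25.7 (-0.70, -1.0 to -0.40). In the shared alveolar fibroblast-like cluster the interval reached 0 (-0.50, -1.60 to 0.72). The shared gCap-like cluster, on 4 and 15 UMIs, pointed the other way, at 22.1 and 35.4 CPM (0.68, -0.97 to 2.73). Pericyte-like cells, at 120 and 101 CPM, differed by less than counting error.

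The arteries were the exception for Bmp4. Arterial-like cells were at 88.8 CPM in room air and 162 in hyperoxia (0.87, 0.49 to 1.26), and the main arterial cluster at 84.2 and 119 (0.50, 0.07 to 0.94). The class value was 0.40 at the clustering resolution of 0.5. The 25 hyperoxia cells of the smaller arterial-like cluster held 341 CPM. Venous-like cells were at 389 and 189 CPM (34 and 113 cells), the highest level of the classes in either library. Arterial-like cells came after the venous-like cells in hyperoxia, not differing from them beyond counting error, and alveolar myofibroblast-like cells followed, while in room air the arterial-like cells lay below alveolar myofibroblast-like, alveolar fibroblast-like and pericyte-like cells. Over all endothelial-like cells Bmp4 was at 59.5 and 37.6 CPM (-0.66, -0.83 to -0.49), and at -1.30 where double the expected number of doublets was removed. The gCap-like share of endothelial Bmp4 UMIs was 39.8% in room air and 23.6% in hyperoxia, and the arterial-like share 15.2% and 31.4%.

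In alveolar fibroblast-like cells the members pointed both ways, and only Tmem100 and Bmp4 passed 1.5-fold. Bmpr2 was at 211 and 307 CPM (0.54, 0.42 to 0.66), Smad7 at 144 and 193 (0.42, 0.28 to 0.57) and Tmem100 at 122 and 205 (0.75, 0.60 to 0.91). Id2 was lower, at 69.2 and 53.7 (-0.37, -0.59 to -0.14), as was Bmp4, and Smad6, on 32 and 94 UMIs, stood at 10.2 and 7.23 (-0.49, -1.08 to 0.14). Of 8435 genes there, 8.28% were higher and 6.88% lower by 1.5-fold, and of 9 members 1 was higher (Tmem100) and 1 lower (Bmp4). The median log2 ratio of the 9 was 0.37 beside 0.03 over all genes. In alveolar myofibroblast-like cells 5.41% of genes were higher and 5.51% lower, and of 10 members again 1 was higher (Tmem100, at 10.9 and 17.1 CPM) and 1 lower (Bmp4), though under a stricter cell filter (a minimum of 1000 genes and a mitochondrial share up to 10%) the log2 ratio of Tmem100 there was -0.01. Id1 in both classes was within counting error of equal (0.10 and 0.18 on the log2 scale), and Id3 was slightly higher (0.20 and 0.17). Inside the shared alveolar myofibroblast-like cluster Id3 was instead lower in hyperoxia, at 742 and 629 CPM (-0.24, -0.38 to -0.10). In the shared alveolar fibroblast-like cluster, of low UMI counts, it was higher, at 384 and 742 (0.95, 0.42 to 1.53). The dissociation list was higher for 12 of 12 genes in alveolar fibroblast-like cells (log2 ratio 0.75) and its part in these differences was not tested. Here too clusters were split by library, 3 of 5 in alveolar fibroblast-like and 4 of 6 in alveolar myofibroblast-like cells being at least 90% from 1 library.

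**Figure D5:**
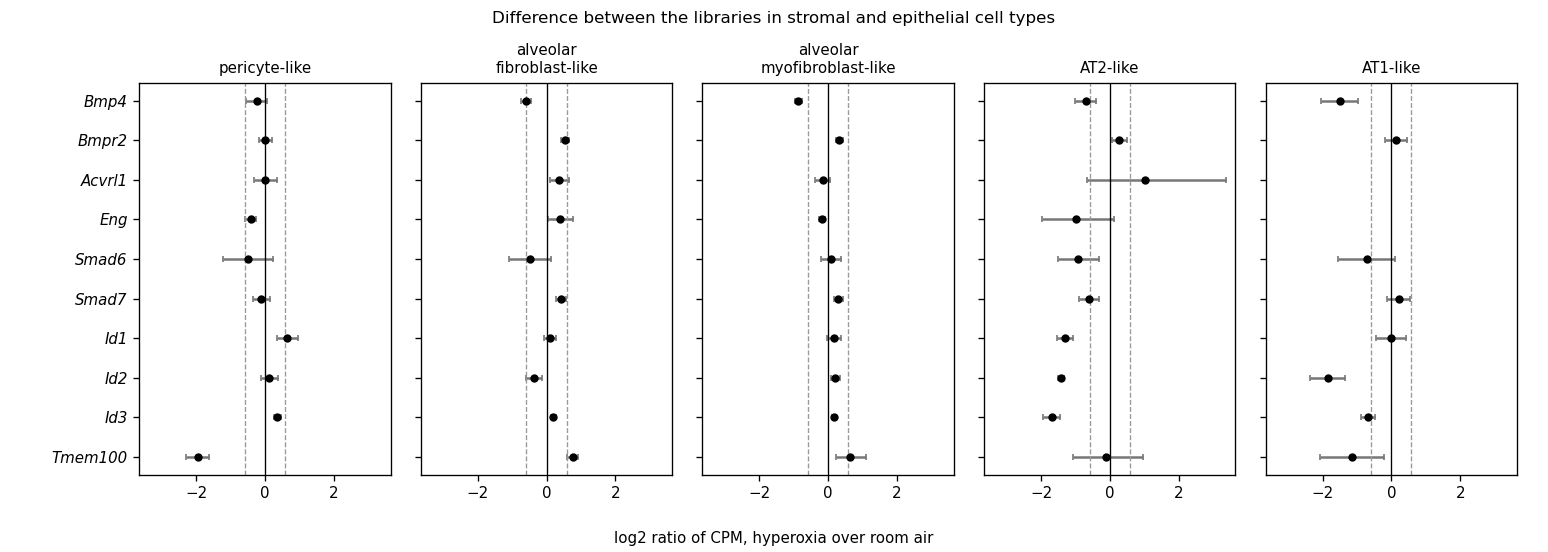
Log2 ratio of hyperoxia over room air for each gene with at least 20 UMIs over both libraries in pericyte-like, alveolar fibroblast-like, alveolar myofibroblast-like, AT2-like and AT1-like cells, with 95% counting intervals and dashed lines at 1.5-fold. The Id genes of AT2-like cells lay at -1.30 (Id1), -1.41 (Id2) and -1.68 (Id3), and Bmp4 lay below 0 in both fibroblast classes.

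In the alveolar epithelium all 3 Id genes were lower in hyperoxia in AT2-like cells, and Id2 and Id3 in AT1-like cells. In AT2-like cells (151 and 792 cells), which make surfactant and renew the alveolar lining, 6 of the 7 members at a mean of 10 CPM or more were lower in hyperoxia by at least 1.5-fold and 0 were higher, where 7.21% of 7269 genes were lower and 6.91% higher. Smad6 reached that mean through room air alone. Among the members at 10 CPM or more in each library 5 of 6 were lower, where 5.96% of genes were, with a median log2 ratio of -1.0 beside 0.03 over all genes. Id2 was at 670 and 252 CPM (-1.41, -1.50 to -1.32), Id1 at 103 and 41.7 (-1.30, -1.53 to -1.07) and Id3 at 97.2 and 30.3 (-1.68, -1.93 to -1.43). Smad7 was at 57.5 and 38.0 (-0.60), Bmp4 at 52.7 and 32.5 (-0.70) and Smad6 at 14.8 and 7.85 (-0.92). The receptor Bmpr2 was the member that was not lower, at 88.5 and 107 CPM (0.27, 0.05 to 0.49).

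The AT2-like Id differences kept their direction at equal cell depth. Thinned to 2000 UMIs, 65.8% and 35.1% of AT2-like cells had an Id2 UMI, 16.1% and 8.3% an Id1 UMI and 14.1% and 5.9% an Id3 UMI, and the unthinned shares were 98.0% and 85.1%, 62.9% and 35.2%, and 53.0% and 26.9%. They were also present inside a shared cluster: in the AT2-like cluster with 142 room air and 31 hyperoxia cells Id2 was at 683 and 289 CPM (-1.24, -1.51 to -0.98), Id1 at 105 and 53.0 (-0.99, -1.66 to -0.38) and Id3 at 97.1 and 33.1 (-1.55, -2.41 to -0.80). Bmp4 in that cluster was at 51.5 and 64.0 (0.31, -0.33 to 0.91), so its AT2-like difference was not seen there. The other 4 of 5 AT2-like clusters were at least 90% from 1 library. The dissociation list did not move with these genes in AT2-like cells, being higher for 4 of 12 genes with a log2 ratio of -0.02.

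AT1-like cells (66 and 127 cells), the thin cells of gas exchange, showed 6 of 9 members lower by at least 1.5-fold (Bmp4, Eng, Smad6, Id2, Id3 and Tmem100) and 0 higher, where 13.1% of 8081 genes were lower and 12.5% higher. Eng, at 17.3 and 2.85 CPM on 12 and 3 UMIs, passed the minimum through room air alone, and the Smad6 interval (-0.71, -1.54 to 0.11) reached 0. At 10 CPM or more in each library 5 of 8 members were lower, where 10.0% of genes were. Id2 was at 157 and 43.7 CPM (-1.85, -2.38 to -1.34) and Id3 at 573 and 357 (-0.68, -0.89 to -0.48), while Id1, unlike in AT2-like cells, was at 114 and 113 (-0.01, -0.44 to 0.42). With double the expected doublets removed Id1 was at -1.50 and Id2 at -3.27 on the log2 scale. Id1 was at 0.42 with the stricter cell filter, and Id2 at -0.32 without doublet removal. The Id1 contrast with AT2-like cells and the size of the Id2 difference thus depended on the processing. The Tmem100 call rested on 26 and 18 UMIs and turned to 1.33 without doublet removal and 1.99 with the stricter cell filter. Within the larger AT1-like cluster Id2 was at 148 and 41.7 (-1.83) and Id3 at 565 and 353 (-0.68). Epithelial marker genes, Sftpc and Sftpb of AT2 cells among them, stood at 49364 CPM in the room air and 14406 in the hyperoxia AT1-like cells, and their part in the Id2 difference, a gene high in AT2-like cells, was not tested.

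In myeloid cells the Id genes were read next. Id2 in alveolar macrophage-like cells was at 201 and 427 CPM (1.08, 0.92 to 1.25) and in nonclassical monocyte-like cells at 139 and 266 (0.93, 0.60 to 1.26), so it was higher in hyperoxia there and lower in AT2-like cells. The dissociation list was higher for 10 of 12 genes in nonclassical monocyte-like cells (log2 ratio 0.37) and for 4 of 12 in alveolar macrophage-like cells (-0.58). Both alveolar macrophage-like clusters were at least 90% from 1 library, so the Id2 difference there could not be read within a shared cluster. As in every class, it cannot be told apart from a difference between libraries. Id1 in neutrophil-like cells was at 90.7 and 248 (1.45, 0.94 to 1.99), with 15.2% and 26.9% of thinned cells holding a UMI. Markers of other lineages moved with it in those cells, the endothelial ones summing to 161 and 297 CPM, the stromal ones to 244 and 464 and the epithelial ones to 491 and 1331, and the dissociation list was higher for 10 of 12 genes (0.46). Their part in the Id differences of these myeloid cells was not tested. In alveolar macrophage-like cells Id1 was at 118 and 110 (-0.11, -0.34 to 0.13). B-like cells held Id2 at 12.6 and 15.5 CPM and Id1 at 4.20 and 8.52.

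The rest of the pathway was read from 46 listed genes (ligands, receptors, Smads, antagonists and targets). In endothelial-like cells 21 passed 10 CPM, of which 2 were higher by 1.5-fold, the antagonists Mgp (490 and 841 CPM) and Fstl1 (279 and 423), and 1 was lower, the Notch and BMP target Hey1 (175 and 78.3). In gCap-like cells 20 passed, 0 higher and 1 lower, the co-receptor Tgfbr3 (44.2 and 21.4). In aCap-like cells 18 passed, with Mgp and Msx1 higher and Crim1 and Hey1 lower, Hey1 at 31.2 and 13.9. The signal-carrying Smads were lower in gCap-like cells without passing the fold, Smad5 at 134 and 92.7 CPM and Smad1 at 93.9 and 69.2. Smad1, Bmpr1a, Gdf2 and Bmp10 are named here after their values were seen. The type I receptor Bmpr1a was nearly missing from endothelial-like cells (3.86 and 3.96) and present in alveolar myofibroblast-like (123 and 147) and AT2-like cells (71.5 and 60.5). Gdf2 and Bmp10, which encode BMP9 and BMP10, had no UMI in endothelial-like cells of either library (a count of 0 allows up to 0.362 CPM in room air and 0.149 in hyperoxia), and in all cells Gdf2 had 1 UMI in room air and 0 in hyperoxia. In AT2-like cells 16 of the 46 passed, with Mgp higher and Bmp2, Bmp3 and Smad5 lower, Smad5 at 59.7 and 37.5. Mgp was far higher in alveolar fibroblast-like cells (10965 and 18332 CPM). It was also higher in hyperoxia in B-like cells (127 and 249), above its level in AT2-like cells of hyperoxia (71.9). The part of stromal RNA in the Mgp differences of endothelial-like, aCap-like and AT2-like cells was not tested.

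Genes whose levels ran most like each member were ranked over 34 points (17 cell types in each of 2 libraries) among 7797 genes by Pearson's r of log levels. The points share libraries and lineages, and r is a description. Tmem100 ran most like Ldb2 (0.96), Sema6a and Shank3, Eng like Foxf1 (0.95), Rhoj and Fendrr, Smad6 like Efnb2 (0.96), Hyal2 and A430105I19Rik, and Acvrl1 like Thbd (0.92), Foxf1 and Ramp2. Bmpr2 and Id3 shared Plscr3 among their leading genes (0.93 for each). Bmp4 ran most like Gpx7 (0.94), Bmp1 and Parva, Smad7 like Ablim1 (0.91) and Id1 like Mapk3 (0.90). No gene ran closely with Id2, whose highest r was 0.63, with Rxra. Among the members themselves Bmpr2 and Smad6 had the highest r (0.93), and Id2 had r between -0.22 and 0.14 with every other member.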

How the data were processed

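Single-cell 3′ RNA libraries of whole lung were read from the deposited raw count matrices, in which the authors counted UMIs per gene and cell barcode against mm10. The submitters' processing notes name Cell Ranger 2.1.1, the extract protocol 6.1.1 and the matrix headers software version 3.1.0, so the version is uncertain, and the labels and the study's methods name different versions of the 10x kit. No normalization had been applied. The deposited counts were used as given, 4234 barcodes with 39593888 UMIs in room air and 13223 with 111934936 in hyperoxia, and no cell annotation was used.

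Barcodes under 500 detected genes, or above a mitochondrial share of 20%, were dropped, which kept 3809 and 11711. Doublets were scored against simulated doublets and removed at 0.8% per 1000 barcodes (129 and 1239), which left 3680 and 10472 cells. Cells were clustered in both libraries together (2000 variable genes without the members, other pathway genes, mitochondrial and sex-linked genes, 30 components, 20 neighbours, Leiden resolution 1), first into lineages, then within them. A cluster was called X-like from listed markers, a marker counting as raised at 5% of cells and a log2 difference of 0.5, with at least 3 raised. Clusters whose leading genes went against the name, or that were low in UMIs without a marker of the name among their 10 leading genes, were left unnamed (4.62% and 4.91% of cells). The scoring rule was set after the clusters were seen.

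UMIs were summed per class and library and given as CPM. Ratios carry exact conditional, levels exact Poisson and shares exact Clopper-Pearson intervals at 95%, all for counting error only. With 1 library a group no test was made. The background is the share of genes with a mean of at least 10 CPM past 1.5-fold, in classes with at least 50 cells in each library. For shares compared across depths each cell was thinned to 2000 UMIs. Named genes were the 10 members, other pathway genes past the fold in endothelial, gCap-like or aCap-like cells or highest of their role in a class, and the 3 genes most like each member. The members and lists were chosen with earlier results of these data known. Promoters came from RefSeq (GRCm38). The ratio and its interval were tested on simulated data. Python 3.11.15, numpy 2.4.6, scipy 1.17.1, pandas 2.3.3, scikit-learn 1.9.0, igraph 0.11.9, leidenalg 0.10.2 and matplotlib 3.10.9 were used, and edgeR 4.0.16 in R 4.3.3 for the TMM alternative. Other alternatives were other cell filters, doublet settings, clustering resolutions, cell weights and gene sets for scaling.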

Additional observations from a re-analysis of the deposited data

Results flagged for a closer look

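Of the 3 endothelial classes, gCap-like and aCap-like cells pointed in opposite directions for 2 members under the same contrast, with intervals that did not reach 0. The log2 ratio of Acvrl1 was 0.15 in gCap-like and -0.17 in aCap-like cells, and that of Tmem100 was 0.084 in gCap-like and -0.57 in aCap-like cells. Inside shared clusters several intervals reached 0. Acvrl1 was at 0.42 (0.03 to 0.83) in the gCap-like one and at -0.17 (-0.38 to 0.04) and -0.36 (-0.82 to 0.12) in the aCap-like ones. Tmem100 was at 0.01 (-0.23 to 0.26) in the gCap-like one and at -0.57 (-0.75 to -0.40) and -0.15 (-0.53 to 0.25) in the aCap-like ones. The difference between the classes was not tested, since each class had 1 library a group.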

How the results depend on the processing

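In endothelial-like cells 110 values were computed under 11 alternatives for the 10 genes, of which 84 stayed within the counting interval of the reported log2 ratio, 25 moved outside it and 1 turned. With TMM factors the log2 ratios were 0.28 (Acvrl1), 0.12 (Bmpr2), 0.11 (Eng), 0.62 (Id1), -0.071 (Id3), -0.050 (Smad6), 0.053 (Smad7) and -0.11 (Tmem100). With double the expected doublets removed they were -1.30 (Bmp4), -0.61 (Id2), -0.24 (Id3), -0.23 (Smad6), -0.13 (Smad7) and -0.17 (Tmem100). As a mean over single cells they were -0.087 (Eng), -0.26 (Smad6) and -0.14 (Tmem100). In the 49 and 25 cells without a UMI of other lineages' genes they were 0.42 (Acvrl1), -0.18 (Bmp4), 0.091 (Bmpr2), 0.25 (Eng), 0.62 (Id1), -2.20 (Id2), -0.40 (Id3), -0.76 (Smad7) and, turned, 0.29 (Tmem100). The share of genes lower by 1.5-fold was 24.2% with no filter on low values. In the 17 named classes 1379 of 1460 values stayed within the interval, 66 moved and 15 turned. At resolution 0.5 those that turned were, in arterial-like cells, Acvrl1 (0.27), Bmpr2 (0.051), Eng (0.0050), Id2 (-0.24) and Id3 (-0.025), Bmpr2 in CD4 T-like (-0.24) and Id2 in CD8 T-like cells (0.31), and at resolution 2 Id3 in neutrophil-like cells (-0.79). With stricter cells Eng (0.12), Id3 (-0.090) and Tmem100 (-0.013) turned in alveolar myofibroblast-like cells and Tmem100 (1.99) in AT1-like cells, the last also without doublet removal (1.33). Eng in alveolar fibroblast-like cells turned as a mean over single cells (-0.22) and with double the doublets removed (-0.12). The cause was not tested in any of these. Leaving out cells of low depth against the median of their library, leaving out unnamed endothelial clusters and requiring 10 CPM in each library were chosen after seeing the data. Under the last the counts of members past 1.5-fold stayed the same in 7 of the 9 classes. In AT2-like and in AT1-like cells the count of members lower in hyperoxia went from 6 to 5. Endothelial levels as a mean over single cells stayed within the interval for 7 of 20, and the share of cells with a UMI moved at both thinned depths for all 20. No paired analysis was possible because each group had 1 library. Depth limits genes with few UMIs, and 1 library a group leaves the spread between mice unknown.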
